A study of Mus musculus with 41 samples.

Results

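Cartilage and growth plate genes were examined in tibial bone of p16-INK-ATTAC mice. The 10 members were Sox9, Ihh, Pth1r, Acan, Hapln1, Comp, Matn3, Chad, Ucma and Prg4. They were the rows carrying these symbols among the 43346 genes of the count table, and each symbol had 1 row. All 10 passed the filter on low counts, which kept 19292 genes. RNA-seq counts were available for 41 mice, namely 12 young mice, 13 old mice given vehicle (old + vehicle) and 16 old mice given AP20187 (old + AP). All of the mice, controls included, carried the INK-ATTAC transgene on a C57BL/6 background, and the study used females. By the labels young meant 6 to 12 months of age and old meant 20 months, while the study's methods place young animals at 6 months. Vehicle or AP20187, at 10 mg per kg of body mass, was started at 20 months and given over 4 months, so the old animals were 24 months of age when sampled, as the methods also have it. In this strain a fragment of the p16 promoter drives an inducible caspase, so AP20187 removes cells in which that promoter is active, and the total RNA of a whole bone sample does not show which cells those were. No batch is given in the labels. Mouse numbers 1 to 29 are old and 30 to 41 young, so a batch that followed age cannot be told apart from age.

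In growing bone, SOX9 is the transcription factor that commits cells to the chondrocyte fate and drives many cartilage matrix genes. Prehypertrophic chondrocytes secrete Indian hedgehog (Ihh), which induces parathyroid hormone-related protein, and that ligand acts back on chondrocytes through the receptor encoded by Pth1r to hold off hypertrophy. The matrix around the cells is built on type II collagen and on aggrecan, which link protein fastens to hyaluronan. The labels name the tissue as the tibial diaphysis, the shaft of the bone, centrifuged before extraction, and the growth plates and joint surfaces lie at the ends of a tibia, outside the shaft.

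Bone cell markers were present in all mice. None of the 14 osteoblast and osteocyte markers, which include Bglap, Col1a1, Dmp1 and Sost, was at 0 in any mouse, and their summed level ranged from 34508 to 89657 CPM in young mice, from 15558 to 78332 CPM in old + vehicle mice and from 7037 to 70001 CPM in old + AP mice. CPM is the read count relative to library size, here with TMM scaling, and total counts ranged from 37028959 to 75942717 per mouse. In bulk bone, fewer cells of a type and less RNA per cell cannot be told apart.

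Promoter sequence is shown for the 4 members on which the comparisons below turn: Ihh, which was called between young and old bone, Hapln1, which with all mice was called there by DESeq2 but not in the edgeR model, Acan, whose level followed that of Hapln1 most closely from mouse to mouse, and Pth1r, which held the only SOX motif found among the members' windows. Each run is the 250 bases before a RefSeq transcript start (GRCm38.p6), 5′ to 3′ on the gene's strand. Capitals mark a SOX core motif, searched as ACAAAG and ACAATG on both strands.
Ihh (chr1:74951673-74951922, minus strand): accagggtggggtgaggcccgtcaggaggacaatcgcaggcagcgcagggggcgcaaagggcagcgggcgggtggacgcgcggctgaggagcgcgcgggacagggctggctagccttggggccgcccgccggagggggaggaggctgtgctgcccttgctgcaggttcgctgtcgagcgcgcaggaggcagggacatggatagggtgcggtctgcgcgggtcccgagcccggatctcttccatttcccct
Hapln1 (chr13:89540386-89540635, plus strand): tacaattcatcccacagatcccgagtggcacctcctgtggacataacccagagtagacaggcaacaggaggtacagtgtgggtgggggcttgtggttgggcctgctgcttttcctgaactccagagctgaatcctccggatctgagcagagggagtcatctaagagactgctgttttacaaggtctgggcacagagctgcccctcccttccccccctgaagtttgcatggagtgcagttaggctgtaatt
Acan (chr7:79052976-79053225, plus strand): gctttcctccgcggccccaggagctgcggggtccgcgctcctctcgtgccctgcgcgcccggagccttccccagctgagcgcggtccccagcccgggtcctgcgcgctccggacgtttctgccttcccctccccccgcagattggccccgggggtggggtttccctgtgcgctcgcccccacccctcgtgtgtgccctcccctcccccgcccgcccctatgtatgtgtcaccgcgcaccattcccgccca
Pth1r (chr9:110747146-110747395, minus strand): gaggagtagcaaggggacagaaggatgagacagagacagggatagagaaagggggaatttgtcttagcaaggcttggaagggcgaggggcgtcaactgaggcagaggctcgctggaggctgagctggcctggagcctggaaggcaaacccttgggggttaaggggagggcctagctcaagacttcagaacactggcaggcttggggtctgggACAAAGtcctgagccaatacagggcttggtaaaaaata
RefSeq windows of 300 bases (250 before and 50 after the start) were at hand for 7 members, with 3 windows for Pth1r, and 1 of these 9 windows held a motif: ACAAAG, beginning 38 bases before the most upstream Pth1r start, which lies outside the span that the count table gives for the gene. Among all 32851 such windows 28.6% held at least 1 motif. The printed stretch of Ihh had a GC content of 72% with 24 CpG, and that of Acan 74.4% with 26 CpG, above the upper quartile of 61.2% over all windows. The stretch of Hapln1 had 54.4% with 2 CpG and that of Pth1r 56% with 3 CpG, nearer the median of 52.4%. The 4 stretches therefore did not share a base composition, and its bearing on their levels was not tested.

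All 41 mice could not be treated as 1 population for these genes. Old + AP mice 18 and 19 stood far above the other 39 mice in 8 of the 10 members. Acan, aggrecan, reached 259 CPM in mouse 18 and 194 CPM in mouse 19, 33.7 and 25.3 times the median of the other mice (7.67 CPM), whose highest value was 35.5 CPM. Matn3 stood at 35.4 and 22.9 times that median, Ucma at 33.7 and 29.5 times, Hapln1 at 21.97 and 16.7 times, and Prg4 at 18.4 and 15.1 times. Chad reached 11.4 and 9.19 times, Sox9 4.54 and 3.68 times and Comp 3.97 and 2.999 times. In these 8 genes both mice lay above every other mouse. Ihh was the exception among the cartilage signals, at 1.65 and 1.44 times the median and inside the range of the others. Pth1r was lower, at 0.421 and 0.326 times the median, and mouse 19 had the lowest value of all mice.

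**Figure D1:**
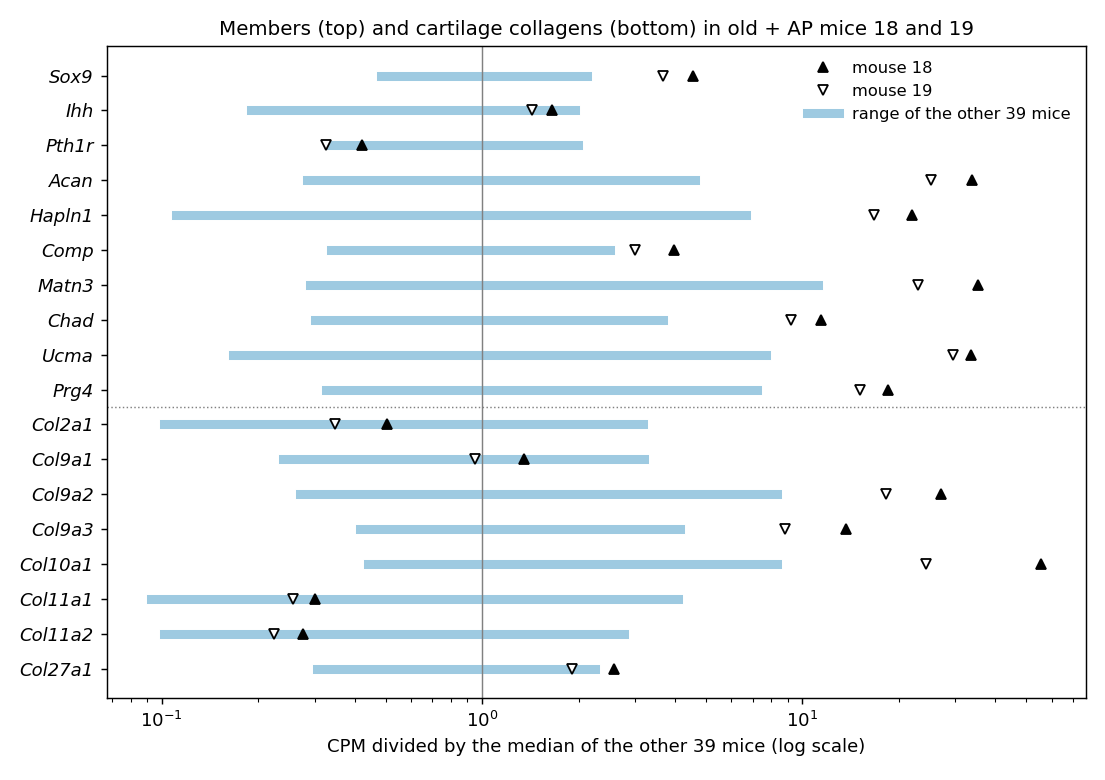
Level of the 10 members (top) and of 8 cartilage collagens (bottom) in old + AP mice 18 and 19, each divided by the median of the other 39 mice on a log axis. Bars give the range of the other 39 mice. 8 members, Col9a2, Col9a3 and Col10a1 lie to the right of the bar in both mice, while Ihh, Col2a1, Col9a1, Col11a1 and Col11a2 lie within it.

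The excess in mice 18 and 19 did not cover every cartilage gene. Col10a1, the collagen of hypertrophic chondrocytes, stood at 122 and 53.5 CPM against a median of 2.20 CPM in the other mice. Col9a2 stood at 28.9 and 19.5 CPM against 1.07 CPM. Col2a1, the main collagen of cartilage, was at 411 and 283 CPM, below the median of 812 CPM in the other mice, and Col11a1 and Col11a2, which join it in the same fibrils, were also below theirs. Col9a1, which pairs with Col9a2 and Col9a3 in type IX collagen, was at 2.999 and 2.11 CPM and so within the range of the other mice.

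Picked for their values alone, 29 genes were at least 8 times the median of the other mice in both bones, at 1 CPM or more. They included 6 members and 8 genes of the cartilage lists, among them Lect1 (chondromodulin, now Cnmd) and Clec3a, and also 5 near-identical Serpina1 genes whose reads cannot be assigned with certainty. Beyond cartilage, 1449 of the tested genes were above every other mouse in both bones and 1455 were below. The osteoblast and osteocyte sum lay between 10833 and 12320 CPM in the pair, against a median of 35269 CPM in the other 14 old + AP mice. The 10 skeletal muscle markers summed to between 6954 and 14703 CPM (median of those 14 mice 47521 CPM), and the 8 neutrophil markers to between 24323 and 32769 CPM (median 14959 CPM). The 10 tendon, ligament and periosteum markers summed to between 1164 and 1234 CPM, below every other mouse, and the 8 endothelial markers to between 386 and 397 CPM, also below every other mouse. The 6 erythroid markers found summed to between 7429 and 13974 CPM (median of those 14 mice 4095 CPM), and the 8 synovial lining markers to between 144 and 185 CPM, within the range of the others. No gene of these lists was at 0 in any mouse. The part of these shifts in the cartilage values was not tested, and values without mice 18 and 19 are given for the members in the comparisons with old + AP mice and wherever leaving them out changed a member's call. Mouse 18 was the most deeply sequenced of all, with 75942717 counts, and the counts of the pair differed from each other by 163 times the variance of counting error.

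Between genes, levels were compared per kilobase of gene length as medians over the other 39 mice. Pth1r (55.5 CPM per kb), Comp (47.5), Chad (34.3) and Prg4 (19.5) formed an upper tier. Acan followed at 1.04 CPM per kb, then Ihh (0.794), Sox9 (0.630), Hapln1 (0.352), Ucma (0.265) and Matn3 (0.0703). This order pools the groups and differed between them. In young mice Hapln1 (0.675) and Ucma (0.426) stood above Ihh (0.398). Comp (69.4) stood above Pth1r (55.5) in old + vehicle mice, and Ihh (0.9371) above Acan (0.7775) in the 14 old + AP mice. Counts of Matn3 fell to 3 and of Ucma to 2 in single mice, so their low values rest on few reads. Within a group, single mice spread widely. The highest young mouse exceeded the lowest 22.2-fold for Prg4 and 28.1-fold for Matn3, but 2.08-fold for Pth1r.

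**Figure D2:**
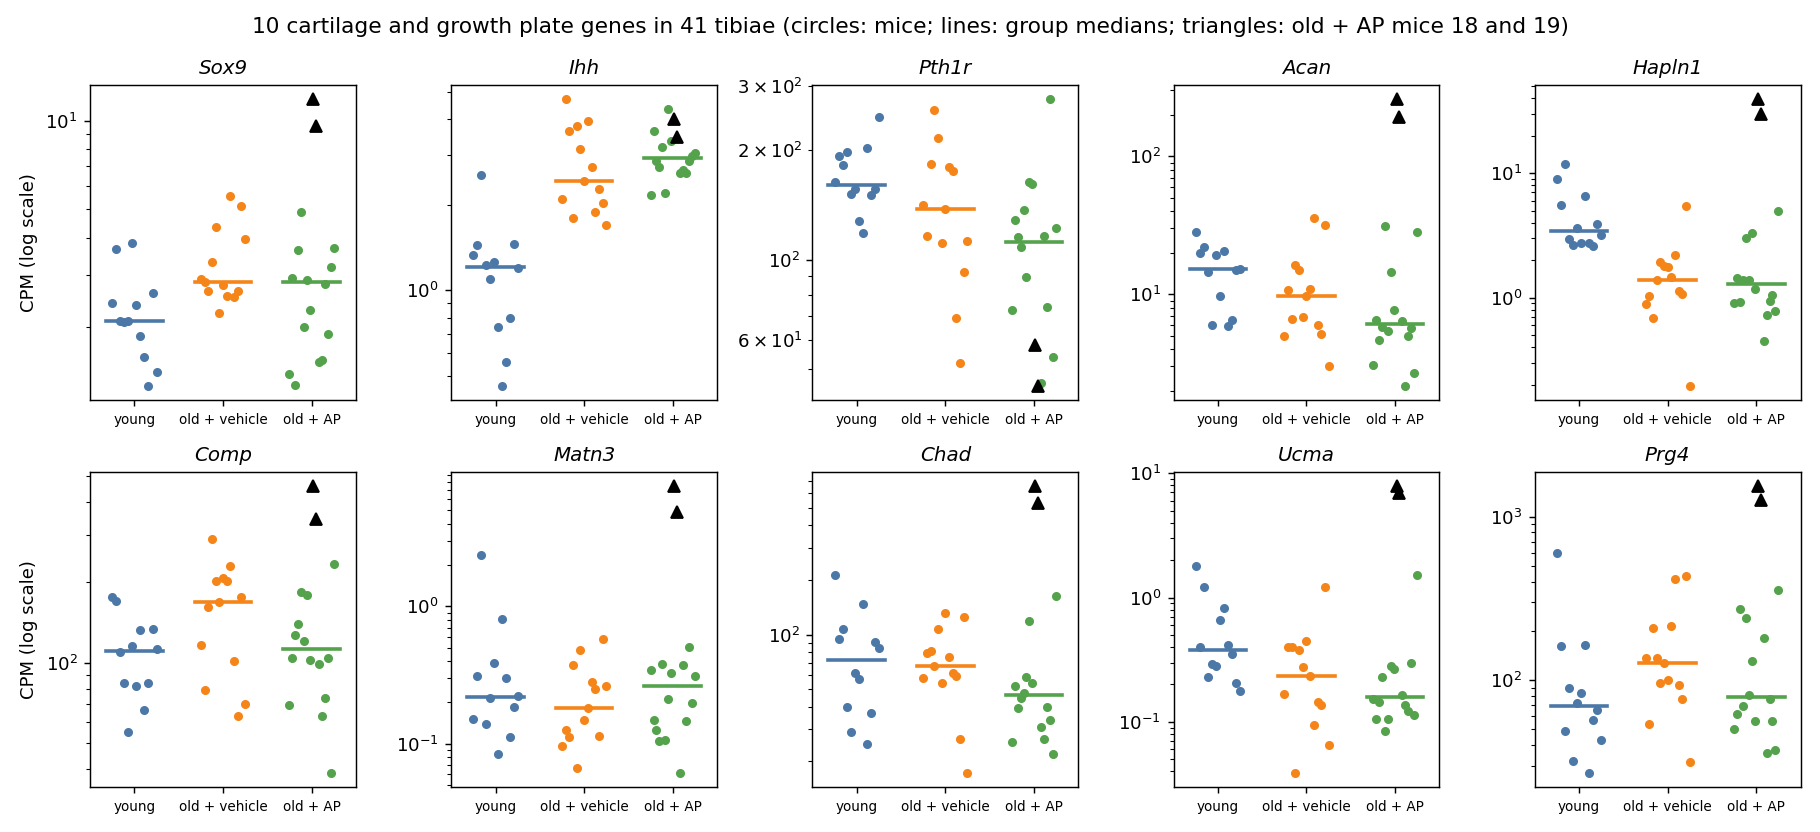
CPM of the 10 members in each of the 41 mice, on log axes, by group, with group medians as lines and old + AP mice 18 and 19 as black triangles. Ihh is higher and Hapln1 lower in most old mice than in young mice, and the triangles stand apart in 8 of the 10 genes.

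Ihh, the hedgehog ligand of prehypertrophic chondrocytes, was the member with the lowest adjusted p between young and old bone. The gene lies at chr1:74945315-74951672 (mm10, minus strand). Its level was 0.461, 1.21 and 2.55 CPM (lowest, median and highest) in young mice, 1.70, 2.42 and 4.71 CPM in old + vehicle mice, and 2.16, 2.92 and 4.33 CPM in old + AP mice. Each of the 29 old mice exceeded the young median. The overlap came from young mouse 32 alone, since the next young mouse, at 1.46 CPM, was below every old mouse. Ihh rose 2.37-fold in old + vehicle against young mice (log2 fold change 1.24, SE 0.20, edgeR quasi-likelihood adjusted p = 2.15e-05) and 2.59-fold in old + AP against young mice (1.37, SE 0.19, adjusted p = 2.69e-06). Without mice 18 and 19 the log2 fold changes were 1.24 and 1.32. Old + AP and old + vehicle mice differed by 0.13 (SE 0.18, adjusted p = 0.66). These differences compare with a background in which, in old + vehicle against young bone, 4.30% of the tested genes rose and 4.76% fell, and in old + AP against young bone 3.73% rose and 4.85% fell.

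Genes of the hedgehog pathway were read beside Ihh, from a list of 20 genes of the hedgehog, PTHrP, FGFR3 and CNP pathways, of which 19 were tested. Gli1, the transcription factor most often used as a readout of the pathway, rose in old + vehicle bone (log2 fold change 0.86, SE 0.26, edgeR adjusted p = 0.0151). It stood at 5.34, 7.33 and 10.4 CPM in young mice and at 4.91, 13.3 and 28.6 CPM in old + vehicle mice, 8 of which were above every young mouse. In old + AP mice it stood at 4.77, 9.47 and 32.4 CPM and was not called against young mice. Of the 19 genes 2 rose and 0 fell in old + vehicle against young mice, with a median log2 fold change of 0.07 beside 0.01 over all tested genes, and 8 had an unadjusted p under 0.05. DESeq2 called Gli1 as well. In old + AP against young mice Fgfr3, which restrains growth plate proliferation, fell by 0.67 (SE 0.16, edgeR adjusted p = 0.00389). Kif7 and Boc fell as well, and over the list 1 gene rose and 3 fell, with the same counts without mice 18 and 19. The difference between old + AP and old + vehicle mice was not called for any of the 19 genes, 1 of which had an unadjusted p under 0.05, and DESeq2 called 0.

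**Figure D3:**
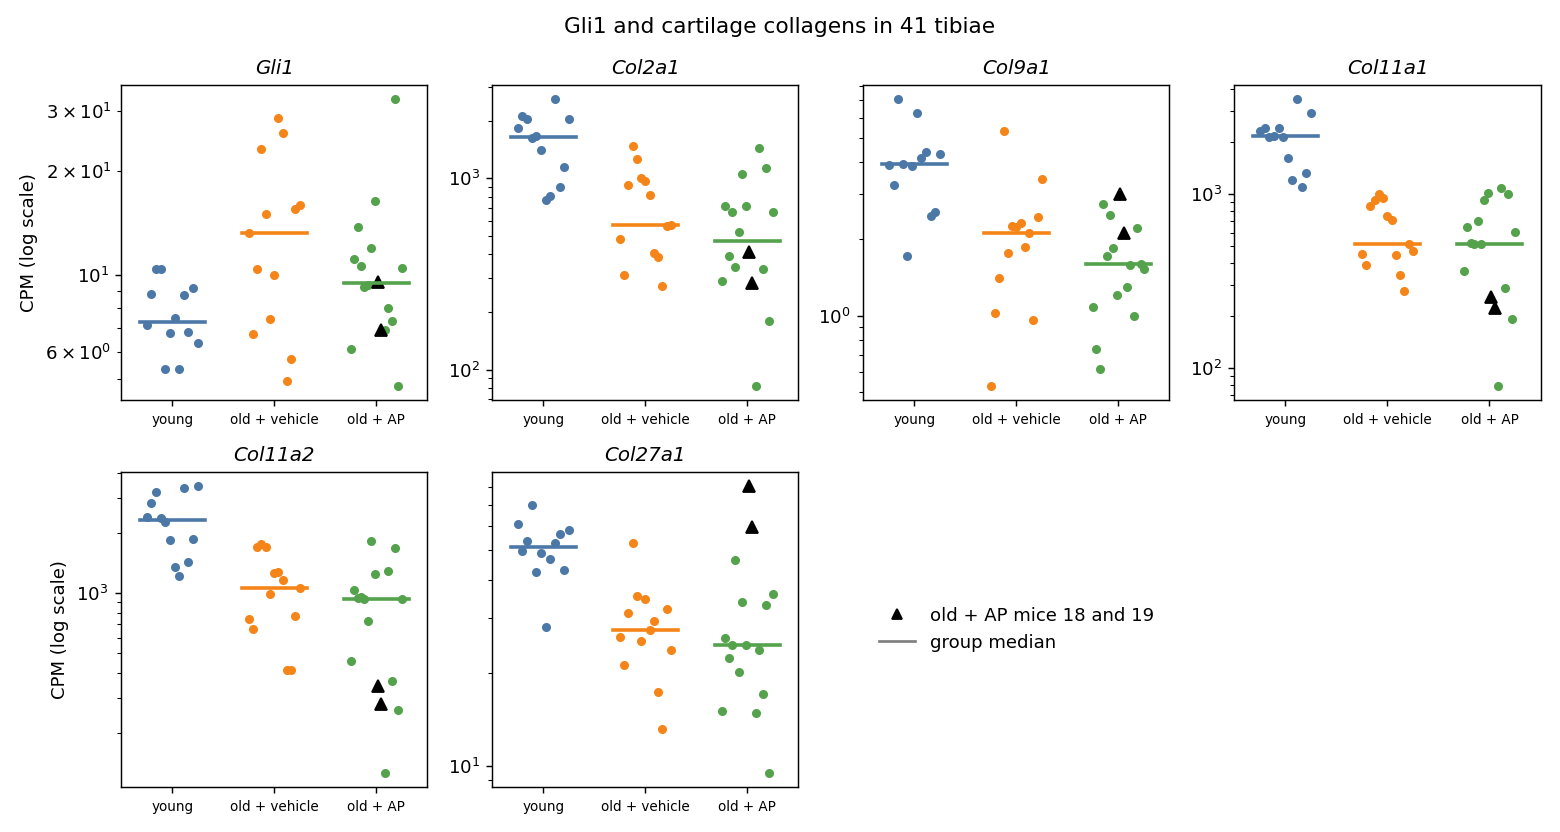
CPM of Gli1 and of 5 cartilage collagens in each mouse, on log axes, by group, with group medians as lines and old + AP mice 18 and 19 as black triangles. For Col11a1 all old mice lie below the lowest young mouse (1098 CPM), while Gli1 overlaps between groups.

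Sox9 lies at chr11:112782224-112787760. It was at 1.26, 2.09 and 3.85 CPM in young mice and at 2.24, 2.84 and 5.54 CPM in old + vehicle mice. All 13 old + vehicle mice were above the young median, with broad overlap above it. The log2 fold change of 0.56 (SE 0.29) did not pass with all mice in the model (edgeR adjusted p = 0.174). It passed without mice 18 and 19 (0.55, SE 0.20, adjusted p = 0.0491) and in a model of these groups alone (0.56, adjusted p = 0.0282). Against the background without mice 18 and 19, where 4.69% of 19185 genes rose and 5.16% fell, Sox9 and Ihh rose and Hapln1 fell. In old + AP mice Sox9 was at 1.27, 2.83 and 11.8 CPM, and 2.53 CPM was the median without the pair. Against young mice it differed by 0.66 (SE 0.27, edgeR adjusted p = 0.0863) with the pair and by 0.17 (SE 0.20, adjusted p = 0.616) without it.

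Pth1r, the receptor for parathyroid hormone and its related protein, is also made by osteoblasts and osteocytes. The gene lies at chr9:110722088-110743686 on the minus strand. Its level was 118, 160 and 246 CPM in young mice, 52.1, 138 and 257 CPM in old + vehicle mice and 45.04, 112 and 276 CPM in old + AP mice. In the last group 10 of 16 mice were below every young mouse, while mouse 27 was above all. Pth1r fell in old + AP against young mice (log2 fold change −0.62, SE 0.22, edgeR adjusted p = 0.0440). DESeq2 called it too. The edgeR call did not hold without mice 18 and 19 (−0.52, SE 0.22, adjusted p = 0.107), and it was lost on leaving out any 1 of 17 mice, namely old + AP mice 3, 5, 11, 18, 19, 24, 25, 26 and 28 and young mice 30, 31, 32, 33, 35, 38, 40 and 41, at fold changes of −0.64 to −0.57. The highest correlations of Pth1r with genes outside the members, over the 41 mice with group means removed, were with Mmp23 (r = 0.97), Ifitm5, an osteoblast gene (r = 0.96), and Efemp2 (r = 0.96). With a score of the osteoblast and osteocyte markers in the model the fold change was −0.15 (SE 0.13, edgeR adjusted p = 0.555). Old + vehicle against young mice gave −0.26 (SE 0.23, adjusted p = 0.465).

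Hapln1 and Acan encode the link protein and the proteoglycan that it stabilizes. Hapln1 lies at chr13:89540636-89611832, and a pseudogene on the other strand (Gm8546) overlaps it, with group medians of 0.802 to 0.923 CPM. Hapln1 was at 2.62, 3.41 and 11.8 CPM in young mice, 0.197, 1.39 and 5.41 CPM in old + vehicle mice and 0.452, 1.28 and 39.1 CPM in old + AP mice. Of the old + vehicle mice 12 of 13 were below the lowest young mouse, the exception being mouse 22, and of the old + AP mice 11 of 16 were. Apart from the pair the old + AP values were 0.452, 1.11 and 4.97 CPM.

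With all mice in the model, Hapln1 in old + vehicle bone differed from young bone by a log2 fold change of −1.57 (SE 0.61, edgeR adjusted p = 0.0644), which was not called. Without mice 18 and 19 the fold change was nearly the same and its error smaller, and Hapln1 fell (−1.59, SE 0.37, adjusted p = 0.00178). It also fell in a model of these groups alone (−1.57, adjusted p = 0.00235), without old + vehicle mouse 22 (−1.88, adjusted p = 0.0307) and in DESeq2 (−1.56, SE 0.51, DESeq2 adjusted p = 0.0174). In old + AP against young mice the value depended on the pair. It was 0.26 (SE 0.57, edgeR adjusted p = 0.788) with them and −1.57 (SE 0.36, adjusted p = 0.00260) without them. In the latter comparison Ihh rose and Hapln1 fell, where 2.61% of tested genes rose and 4.24% fell.

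Acan (chr7:79053483-79115099) was at 5.88, 15.1 and 28.1 CPM in young mice, at 3.04, 9.68 and 35.5 CPM in old + vehicle mice and at 2.17, 5.72 and 31.4 CPM in the 14 old + AP mice. The old + vehicle mice spanned the whole young range, with mice 16 and 22 above it. The log2 fold changes against young mice were −0.29 (SE 0.64, edgeR adjusted p = 0.802) for old + vehicle mice and −0.72 (SE 0.40, adjusted p = 0.231) for the 14 old + AP mice. With mice 18 and 19 the latter was 1.26 (SE 0.63, adjusted p = 0.159).

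Of the remaining matrix members none was called between old + vehicle and young bone. Comp, a thrombospondin of cartilage and tendon at chr8:70373548-70382065, was at 55.0, 111 and 176 CPM in young mice, 63.0, 168 and 289 CPM in old + vehicle mice and 38.8, 104 and 234 CPM in the 14 old + AP mice. Its difference between old + vehicle and young mice was 0.53 (SE 0.29, edgeR adjusted p = 0.210). Old + AP and young mice differed by 0.47 (SE 0.28, adjusted p = 0.244) with the pair and by 0.08 (SE 0.24, adjusted p = 0.855) without it. Matn3, matrilin-3 at chr12:8947929-8972028, was at 0.0846, 0.218 and 2.37 CPM in young mice and at 0.0664, 0.182 and 0.574 CPM in old + vehicle mice, and at 0.0616, 0.204 and 0.503 CPM in the 14 old + AP mice. Young mouse 32, at 2.37 CPM, set the young maximum, and the difference between old + vehicle and young mice was −0.90 (SE 0.70, adjusted p = 0.399). Old + AP and young mice differed by 1.19 (SE 0.64, edgeR adjusted p = 0.188) with the pair and by −0.88 (SE 0.42, adjusted p = 0.162) without it.

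Chad, chondroadherin at chr11:94565047-94569127, overlaps Acsf2, a gene on the opposite strand, so that without strand their reads cannot be told apart. Acsf2 stood at 20.2 and 19.6 CPM in mice 18 and 19, inside the range of the other mice, whose maximum was 26.1 CPM, while Chad was at 658 and 529 CPM. Chad was at 24.9, 72.6 and 212 CPM in young mice, 17.4, 66.7 and 131 CPM in old + vehicle mice and 21.97, 42.4 and 163 CPM in the 14 old + AP mice, with overlap throughout. Old + vehicle and young mice differed by −0.18 (SE 0.49, edgeR adjusted p = 0.840), a value that was 0.04 without young mouse 30. Old + AP and young mice differed by 0.57 (SE 0.47, adjusted p = 0.424) with the pair and by −0.60 (SE 0.33, adjusted p = 0.222) without it.

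Ucma, a secreted Gla-rich protein of the growth plate at chr2:4976122-4985748, was at 0.177, 0.376 and 1.81 CPM in young mice and at 0.0391, 0.234 and 1.21 CPM in old + vehicle mice. Among the 14 old + AP mice it was at 0.0844, 0.148 and 1.51 CPM, and 9 of them were below every young mouse, with mouse 29 far above the rest. Neither group was called against young mice, at −0.91 (SE 0.73, edgeR adjusted p = 0.410) with all mice for old + vehicle and −1.08 (SE 0.45, adjusted p = 0.105) for the 14 old + AP mice. With the pair the latter was 1.06 (SE 0.66, adjusted p = 0.270).

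Prg4, lubricin of the joint surface and synovium, lies at chr1:150449412-150466165 and overlaps Tpr on the other strand. It was at 27.2, 69.3 and 603 CPM in young mice, 31.4, 127 and 433 CPM in old + vehicle mice and 35.8, 72.7 and 357 CPM in the 14 old + AP mice. Tpr was at 206.1 and 216 CPM in mice 18 and 19, just above the highest of the other mice (205.6 CPM), against 1539 and 1263 CPM for Prg4. The difference between old + vehicle and young mice was 0.43 (SE 0.59, edgeR adjusted p = 0.655). Against young mice the old + AP mice differed by 1.22 (SE 0.57, adjusted p = 0.134) with the pair and by 0.00 (SE 0.45, adjusted p = 0.997) without it. With the pair kept, leaving out young mouse 30 made the Prg4 value a call (1.87, adjusted p = 0.0215), and leaving out young mouse 32 did so for Matn3 (1.91, adjusted p = 0.0380).

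The comparison of old + AP with old + vehicle mice addressed whether removal of p16-expressing cells moved these genes. No member was called by edgeR or by DESeq2. With all mice, 4 members had an unadjusted p under 0.05 in edgeR, all higher in old + AP mice: Matn3 (log2 fold change 2.10, SE 0.66, adjusted p = 0.0761), Ucma (1.97, SE 0.69, adjusted p = 0.0933), Hapln1 (1.84, SE 0.59, adjusted p = 0.0768) and Acan (1.55, SE 0.62, adjusted p = 0.130). DESeq2, which by default replaces counts far outside their group, gave 0.01 for Matn3, −0.21 for Ucma, both with no adjusted p, 1.08 for Hapln1 (adjusted p = 0.126) and 0.75 for Acan (adjusted p = 0.327). The background of calls in this comparison was 0.0259% of genes higher and 0.0467% lower. The share of all tested genes with an unadjusted p under 0.05 was not counted, so the 4 members cannot be set against it.

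The higher values rested on mice 18 and 19. Without them the fold changes were 0.04 for Matn3, −0.17 for Ucma, 0.01 for Hapln1 and −0.42 for Acan, no member had an unadjusted p under 0.05, and 0% of all genes were called in either direction. Ihh (0.08), Pth1r (−0.26) and Comp (−0.45) kept the sign they had with the pair (0.13, −0.36 and −0.06). Sox9, Chad and Prg4 also changed sign, to −0.38 (SE 0.20), −0.42 (SE 0.32) and −0.42 (SE 0.44), with edgeR adjusted p-values of 0.397, 0.574 and 0.700. Conversely, leaving out old + AP mouse 9 while keeping the pair made Hapln1 (1.91, adjusted p = 0.0413) and Matn3 (2.18, adjusted p = 0.0376) calls.

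**Figure D4:**
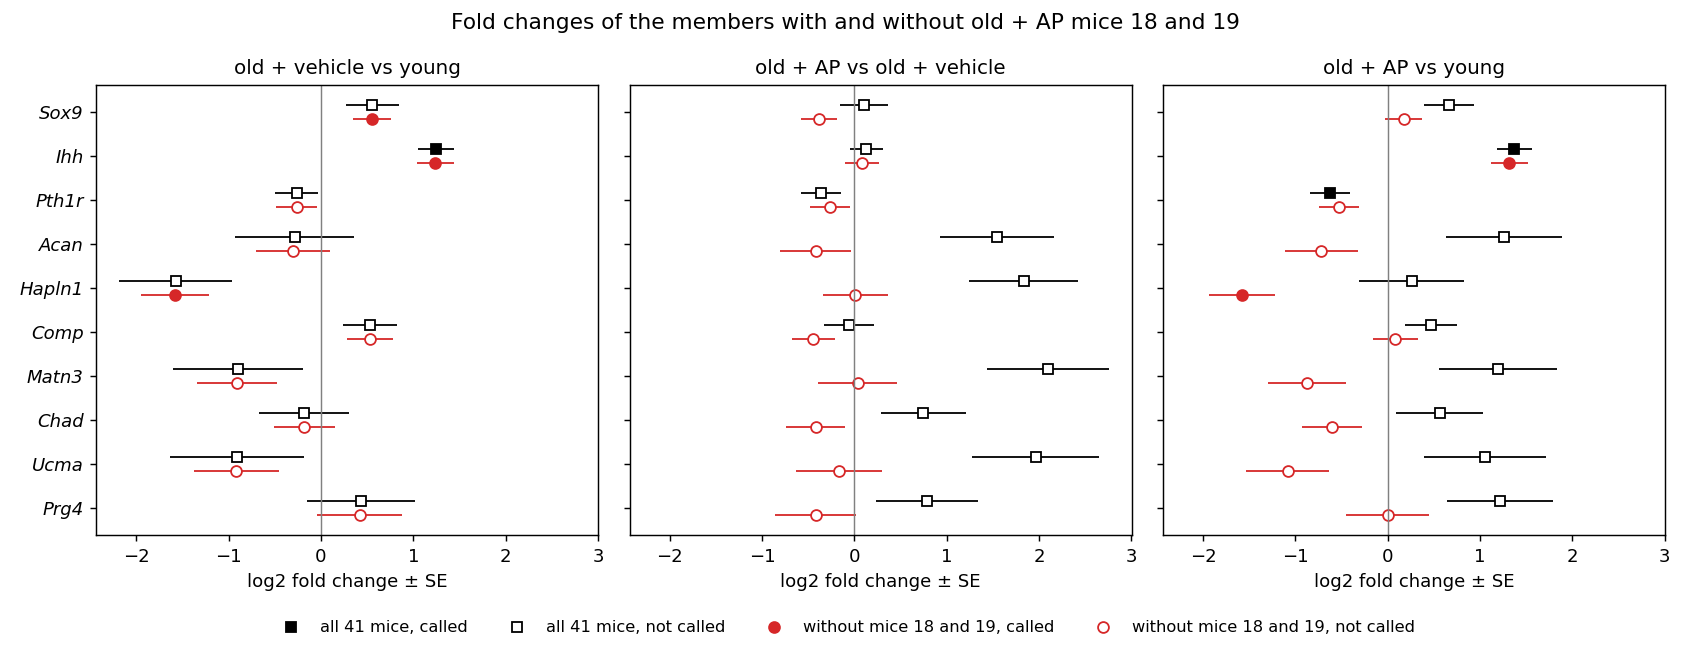
Log2 fold change ± SE (edgeR) of each member in the 3 comparisons with all 41 mice (black squares) and without old + AP mice 18 and 19 (red circles), filled where called. Ihh holds its place in both fits, while Acan, Hapln1, Matn3, Chad, Ucma and Prg4 move from positive to about 0 or below in the comparisons with old + AP mice.

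Members varied together between mice of the same group. This was measured as Pearson's r and Spearman's rho of log2 CPM with the group means removed, over 45 pairs, and because mice 18 and 19 form a cluster of their own the values are given over the other 39 mice. Each point is a library, so depth, scaling and the mix of cells are shared by all genes of a point. Within old + vehicle mice, for example, the skeletal muscle sum ranged from 13573 to 105314 CPM. In total 18 of 45 pairs passed at an adjusted p under 0.05 by a permutation test, all positive, and 15 of these also passed by rho. The share of pairs that would pass among other genes was not computed, so whether the members vary together more than other genes was not tested. Acan and Hapln1 were the closest pair (r = 0.82, permutation p = 1e-05, the smallest that 100000 permutations give, adjusted p = 5.6e-05, and rho = 0.82, permutation p = 1e-05, adjusted p = 6.4e-05). Leaving out the 2 mice farthest from the Acan median gave r = 0.80. Inside each group the pair also passed, at r = 0.79 in young mice (permutation adjusted p = 0.0201), 0.81 in old + vehicle mice (permutation adjusted p = 0.0157) and 0.84 in the 14 old + AP mice (permutation adjusted p = 0.0045).

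Acan, Hapln1, Comp, Chad and Prg4 formed a block in which all 10 pairs passed, with r from 0.59 for Hapln1 and Prg4 to 0.82. Ucma passed with Chad (r = 0.65, permutation adjusted p = 1.8e-04), Hapln1, Prg4 and Acan, of which the pair with Chad alone passed by rho. Sox9 passed with Acan (r = 0.60, permutation adjusted p = 3.3e-04) and with Hapln1 (r = 0.45, permutation adjusted p = 0.014). Ihh passed with no other member at this threshold by r (highest r = 0.36, with Chad, permutation adjusted p = 0.0678), though by rho it passed with Chad, Acan and Pth1r. With mice 18 and 19 included 31 of 45 pairs passed, and within groups 9 passed in young mice, 1 in old + vehicle mice and 9 in the 14 old + AP mice.

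**Figure D5:**
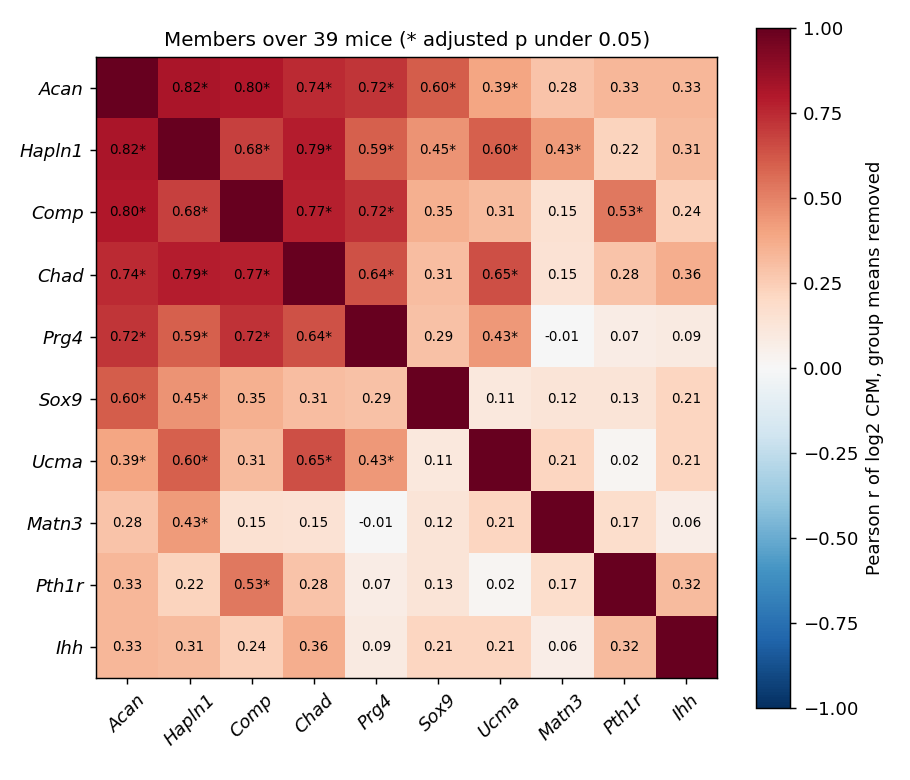
Pearson's r between members over 39 mice (without old + AP mice 18 and 19), from log2 CPM with group means removed, with a star where the permutation adjusted p is under 0.05. The block of Acan, Hapln1, Comp, Chad and Prg4 has r of 0.59 or more, Ihh has r of 0.36 or less with each other member, and Pth1r reaches 0.53 with Comp.

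The nearest genes outside the members, by r over the 41 mice and with no test, differed by member. Acan, Comp and Chad each had 1500015O10Rik as the closest gene (r = 0.90, 0.89 and 0.91), followed for Acan by Ndufa4l2 and Dhx58os, for Comp by Thbs3 and Scube1, and for Chad by Clec3a, a cartilage lectin, and Mfi2. Hapln1 was closest to Dhx58os (r = 0.89), Colgalt2 and 3110079O15Rik (now Snorc). Sox9 was closest to Col9a2 (r = 0.72), Ppp1r1b and 3110079O15Rik. Ucma was closest to Serpina1a (r = 0.90), Mfi2 and Serpina1d, and Matn3 to Prkg2, a kinase of the growth plate (r = 0.83), Lect1 and Serpina1d. Prg4 was closest to Stk32b (r = 0.91), Nt5e and 1500015O10Rik. Ihh had no close neighbour, the highest being Galr2 (r = 0.56), Tbx5 (r = 0.54) and Bmp2 (r = 0.52). Over the 39 mice the closest gene remained the same for Pth1r (r = 0.97), Hapln1 (r = 0.81), Matn3 (r = 0.63), Chad (r = 0.84), Ucma (r = 0.77) and Prg4 (r = 0.86). Apart from that of Pth1r, these r were lower than over the 41 mice. It became Thbs3 for Acan (r = 0.83), Mfge8 for Comp (r = 0.87), Bhlhe40 for Sox9 (r = 0.70) and Adamtsl2 for Ihh (r = 0.61).

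Other cartilage genes were read from 6 lists with 83 tested genes. In old + vehicle against young mice 5 rose and 9 fell, with a median log2 fold change of −0.09 beside 0.01 over all tested genes. Of all tested genes 4.30% rose and 4.76% fell, so the increases were near the background. Of the cartilage collagens 5 of 8 fell and 0 rose, at a list median of −0.88. Col11a1 fell most (−1.75, SE 0.29, edgeR adjusted p = 5.36e-05). It was at 1098, 2143 and 3498 CPM in young mice, 276, 517 and 1004 CPM in old + vehicle mice and 79.4, 520 and 1079 CPM in old + AP mice, and all 29 old mice were below the lowest young mouse. Col2a1 fell by 1.12 (SE 0.32, edgeR adjusted p = 0.0105), Col11a2 by 1.10 (SE 0.31, adjusted p = 0.00953), Col9a1 by 0.91 (SE 0.26, adjusted p = 0.0117) and Col27a1 by 0.84 (SE 0.23, adjusted p = 0.00896). In old + AP against young mice these 5 collagens fell too, Col11a1 by 1.91 (SE 0.27, edgeR adjusted p = 5.81e-06), and without mice 18 and 19 Col9a2 fell as well (−1.39, SE 0.42, adjusted p = 0.0223). DESeq2 called Col9a2 lower with all mice in both comparisons (−1.34, DESeq2 adjusted p = 0.00198, and −1.33, DESeq2 adjusted p = 0.00139), and so 6 of 8 collagens in each. The same comparisons lowered 4 and 8 of the 14 osteoblast and osteocyte markers, Bglap by 1.71 and 2.01, and raised Mepe and Sost. They also lowered 5 of the 10 tendon, ligament and periosteum markers each, namely Postn (by 1.57 and 1.95), Aspn, Kera, Col12a1 and Mkx. The 1 marker of that list that rose was Thbs4, in old + vehicle mice. Of the 8 synovial lining markers 2 fell and 1 rose in old + vehicle mice. In old + AP mice 1 fell and 0 rose, and Dkk3 was lower in both comparisons. The part of these cell types in the collagen values was not tested.

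Among the other matrix and secreted genes of cartilage, 2 of 18 rose and 3 fell in old + vehicle mice. Thbs4 rose most (0.76, SE 0.24, edgeR adjusted p = 0.0203), Vcan, the proteoglycan versican, also rose, and Frzb, a Wnt antagonist of articular cartilage, fell most (−1.02, SE 0.27, adjusted p = 0.00547), followed by Cilp2 and Edil3. With mice 18 and 19 left out, Snorc (3110079O15Rik), a chondrocyte transmembrane proteoglycan, also fell (−1.68, SE 0.51, adjusted p = 0.0159), as did Cytl1, and Cilp rose. Of 16 genes that build and sulfate proteoglycan chains Chst3, a chondroitin sulfotransferase, fell (−0.92, SE 0.23, adjusted p = 0.00374). Of 12 proteases and inhibitors Adamts1 rose (0.52, SE 0.17, adjusted p = 0.0284). None of 10 tested chondrocyte transcription factors was called by edgeR or by DESeq2, with 2 at an unadjusted p under 0.05. In old + AP against young mice 4 of the 83 genes rose and 14 fell, where 3.73% of all tested genes rose and 4.85% fell, so the increases were again near the background. Among them were Cilp (1.08, SE 0.34, edgeR adjusted p = 0.0242) as the largest increase and Cilp2 (−1.42, SE 0.27, adjusted p = 2.61e-04) as the largest decrease in the matrix list. Cilp was not called without mice 18 and 19, and Snorc then fell furthest (−2.16, SE 0.51, adjusted p = 0.00350). Chpf (−0.61, adjusted p = 0.0399) and Adamts9 (−0.51, adjusted p = 0.0386) fell in the sulfation and protease lists and were likewise not called without the pair. DESeq2 called Chpf but none of the 12 protease genes in this comparison.

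Old + AP against old + vehicle mice gave no call among the 83 genes by edgeR, with 17 at an unadjusted p under 0.05, and DESeq2 called Mia (1.67, SE 0.56, DESeq2 adjusted p = 0.0496), a secreted chondrocyte protein that stood at 12.1 and 10.04 CPM in mice 18 and 19 against a median of 0.554 CPM in the other 39 mice. In edgeR its difference without the pair was 0.06 (SE 0.43, adjusted p = 0.967). Without mice 18 and 19 edgeR again called 0, with 6 at an unadjusted p under 0.05. The share of all tested genes at that unadjusted p was not counted. Over the 83 genes the median difference was −0.06 (log2) with the pair and −0.12 without it, beside 0.00 and −0.01 over all tested genes.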

How the data were processed

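RNA of centrifuged tibial diaphyses was sequenced by the authors on a HiSeq2000. The deposited values are raw counts per gene, 1 column per mouse, made by the authors with TopHat2 2.0.6 and HTSeq on GRCm38 (mm10), per the labels. The annotation release and strand setting are not given in the sources used here. Counts were scaled by TMM, filtered by expression and fitted by the quasi-likelihood test of edgeR 4.0.16 (R 4.3.3) in 1 model of the 3 groups. A gene was called at a Benjamini-Hochberg adjusted p under 0.05 over all tested genes and a log2 difference of more than 0.5 either way. Shares over all tested genes are given for calls only, and none was counted for unadjusted p. Log2 CPM used a prior count of 2, and pairs were permuted within groups (Python, numpy). Scripts were tested on simulated data.

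The members and lists were chosen with earlier results of these data known. Named genes were the members, the largest called increase and decrease per list, the 3 nearest genes per member, and list genes where counts were 5 or fewer. A called list gene that these rules would name is not reported here. Mice are separate animals. Alternatives were DESeq2 1.42.0, other scalings, no filter, models of 2 groups, a robust fit, no fold threshold, marker covariates and each mouse left out. Leaving out mice 18 and 19 was added after the data were seen. The labels call the molecule genomic DNA, while the values are gene counts.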

Additional observations from a re-analysis of the deposited data

How the results depend on the processing

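Ihh kept its direction and its call against young mice under all 35 alternatives for old + vehicle mice (log2 fold change 1.16 to 1.40) and all 38 for old + AP mice (1.30 to 1.53). The number of members called in old + vehicle against young mice was 1, and it was 2 by DESeq2, 3 in models of 2 groups, 2 with the osteoblast and osteocyte score as covariate (Hapln1 −2.003, adjusted p = 0.00474) and 3 without old AP mice 18 and 19. It was 1 to 2 on leaving out each mouse. In old + AP against young mice it was 2, and 1 with no filter on low counts, 1 with the osteoblast and osteocyte score, and 1 to 2 on leaving out each mouse. Between the old groups it was 0, and 0 to 2 on leaving out each mouse. List genes called between the old groups were 0, and 1 by DESeq2. Pairs varying together were 31, and 18 without mice 18 and 19. No paired analysis was possible because the groups share no mouse numbers.

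Signs turned in these cases, none of them called except Hapln1 in old + AP against young mice without mice 18 and 19, and the cause was not tested. With the osteoblast and osteocyte score, Pth1r in old + vehicle against young mice was 0.018. Between the old groups that score gave Sox9 −0.19 and Prg4 −0.12, the muscle score gave Sox9 −0.06, Chad −0.057 and Prg4 −0.11, and DESeq2 gave Ucma −0.21. Without mice 18 and 19, Sox9 was −0.38, Acan −0.42, Chad −0.42, Ucma −0.17 and Prg4 −0.42. In old + AP against young mice DESeq2 gave Hapln1 −0.48, Matn3 −0.14 and Ucma −1.10. There the muscle score gave Hapln1 −0.84, Matn3 −0.092, Chad −0.20 and Ucma −0.38, and the osteoblast and osteocyte score gave Acan −0.51, Hapln1 −1.38, Matn3 −0.77, Chad −0.38, Ucma −1.06 and Prg4 −0.009. Without mice 18 and 19 Acan was −0.72, Hapln1 −1.57, Matn3 −0.88, Chad −0.60 and Ucma −1.08. On leaving out each mouse, Chad in old + vehicle against young mice ranged from −0.28 to 0.043 (without young mouse 30), Comp and Sox9 between the old groups from −0.28 to 0.044 and from −0.15 to 0.19, and Hapln1 in old + AP against young mice from −0.49 to 0.47. For Matn3 and Ucma, with counts down to 3 and 2, depth limits what can be seen.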
